A study of Saccharomyces cerevisiae with 25 samples.

Results

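The regulatory core of the phosphate-responsive (PHO) signalling pathway of budding yeast was followed through its 5 genes PHO85, PHO80, PHO81, PHO4 and PHO2. They were taken by name, and all 5 were found among the 6650 named genes of the matrix. The libraries form 1 time course of Saccharomyces cerevisiae, of strain background BY4741 (a haploid laboratory strain of mating type a), labelled delta-vip1 and pho84pr-YFP. The strain is thus described as lacking VIP1, an inositol pyrophosphate kinase, and as carrying a yellow fluorescent protein gene under the PHO84 promoter, and a strain with VIP1 is not analysed here. A single library came from cells in high-phosphate medium (0 min), and 24 libraries came from cells that were washed, moved to medium without phosphate and sampled every 15 min for 6 hours. Each time had 1 library, so values have no replicate at their own time, and p-values measure the scatter around a smooth curve within 1 time course, some of which may be technical. In RNA from a whole culture, more cells expressing a gene and more RNA per cell cannot be told apart. Times are grouped as early (15 to 120 min), middle (135 to 240 min) and late (255 to 360 min), with 8 libraries in each such window.

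Pho85 is a cyclin-dependent kinase, and Pho80 is the cyclin that directs it to the transcription factor Pho4. In cells with ample phosphate the Pho80-Pho85 complex phosphorylates Pho4 and keeps it out of the nucleus. When phosphate runs low, the inhibitor Pho81 blocks the kinase, and Pho4 enters the nucleus and activates its targets together with the homeodomain protein Pho2. PHO81 is itself a known target of Pho4, so the pathway contains a positive loop. The kinase, cyclin and inhibitor are known chiefly for control at the protein level, and RNA levels alone say nothing of their activity.

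The DNA upstream of the 5 genes is shown because Pho4 is known to bind CACGTG and, less tightly, CACGTT. Both motifs were searched on both strands in the 500 bases before each first coding base, in the RefSeq copy of build R64. CACGTG reads the same on both strands, and the motifs do not overlap each other. PHO81 held 1 CACGTG, 344 to 339 bases before its first coding base, and 1 CACGTT on the opposite strand at 8 to 3 bases. PHO80 and PHO85 held 1 CACGTT each, at 490 to 485 and at 247 to 242 bases. PHO4 and PHO2 held neither motif in this window. Of 6006 such windows of protein-coding genes, 6.23% held CACGTG and 16.0% held CACGTT. The lines below give the 300 bases from 400 to 101 before PHO81 (chrVII:958311-958610, minus strand), which hold its CACGTG but not the CACGTT nearer the gene, 60 bases around the motif upstream of PHO85 (chrXVI:493252-493311, minus strand) and of PHO80 (chrXV:324732-324791, plus strand), and, as a strongly induced target, 60 bases around a motif upstream of PHO84 (chrXIII:26204-26263, minus strand). All are written on the strand of the gene, and capitals mark a motif or its reverse complement.
PHO81: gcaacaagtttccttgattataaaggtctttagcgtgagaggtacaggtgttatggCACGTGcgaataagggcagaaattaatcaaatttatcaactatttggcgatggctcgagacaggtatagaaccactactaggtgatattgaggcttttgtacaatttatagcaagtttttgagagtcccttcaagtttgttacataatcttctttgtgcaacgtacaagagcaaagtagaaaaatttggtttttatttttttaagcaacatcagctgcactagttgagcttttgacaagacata
PHO85: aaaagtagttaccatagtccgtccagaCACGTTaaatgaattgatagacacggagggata
PHO80: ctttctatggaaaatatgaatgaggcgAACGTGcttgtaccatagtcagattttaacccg
PHO84: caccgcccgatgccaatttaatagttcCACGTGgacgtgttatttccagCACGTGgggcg

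Levels are in RPM, which scales each library to 1000000 reads. All 25 libraries held reads of VIP1 itself, between 9.69 and 55.7 RPM. This goes against the label if the whole gene was removed, and the extent of the deletion is not known here. Libraries held 413033 (345 min) to 4162690 reads (165 min), and a gene was listed only where it had at least 10 reads. The 5 genes were listed in all 25 libraries, with whole numbers of reads in all 125 values. The genes STE2, MFA1, MFA2, BAR1, STE6 and AGA2 of mating type a were listed in all libraries, while MFALPHA2 of the opposite type was listed in 0 and MFALPHA1 in 10. STE3, another gene of the opposite type, was listed in all 25 at 18.7 to 54.6 RPM, and SAG1, also of that type, in 23 at 8.25 to 28.7 RPM. Of the genes deleted in BY4741, HIS3, LEU2 and MET17 were listed in 0 libraries and URA3 in 8. Cytosolic ribosomal protein genes took 33.8% of reads at 0 min and 4.55% to 5.39% in the late window. Over the same times the median of all tested genes moved by 0.41 on the log2 scale late against 0 min and by 0.49 late against early. Changes below are as deposited unless another scale is named, and the value minus that median is given beside the main ones. The gene lists read below were chosen with earlier results of these data known, so their counts describe and do not test.

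PHO81, the kinase inhibitor (YGR233C, chromosome VII, 954674 to 958210, minus strand, 1 coding exon), showed the largest change of the 5. It stood at 71.1 RPM at 0 min, on 140 reads. In the early window it ran from 47.7 to 148 RPM with a median of 79.5. In the middle window the range was 175 to 259.6 with a median of 211, and in the late window 256 to 438 with a median of 288. All 8 late libraries were above the highest early library, as they were in 36.1% of all tested genes. All 8 middle libraries were above it too, and the middle and late libraries were all above 0 min. No share over all genes is given here for these last 2 patterns, so they cannot be set against it. PHO81 rose by 2.08 log2 units late against 0 min (SE 0.18, limma adjusted p = 7.9e-11), or 1.67 above the median gene. Middle against 0 min it rose by 1.61 (SE 0.18, adjusted p = 1.2e-07), and late against early by 1.84 (SE 0.08, adjusted p = 1.9e-18). Early against 0 min it stood at 0.24 (SE 0.18, adjusted p = 0.709), a mean over a window in which it first lay below and later above 0 min. A change was called where the adjusted p was under 0.05 and the size at least 1. NAS6 lies 27 bases downstream on the other strand, and no source used here says whether counting used strand.

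**Figure D1:**
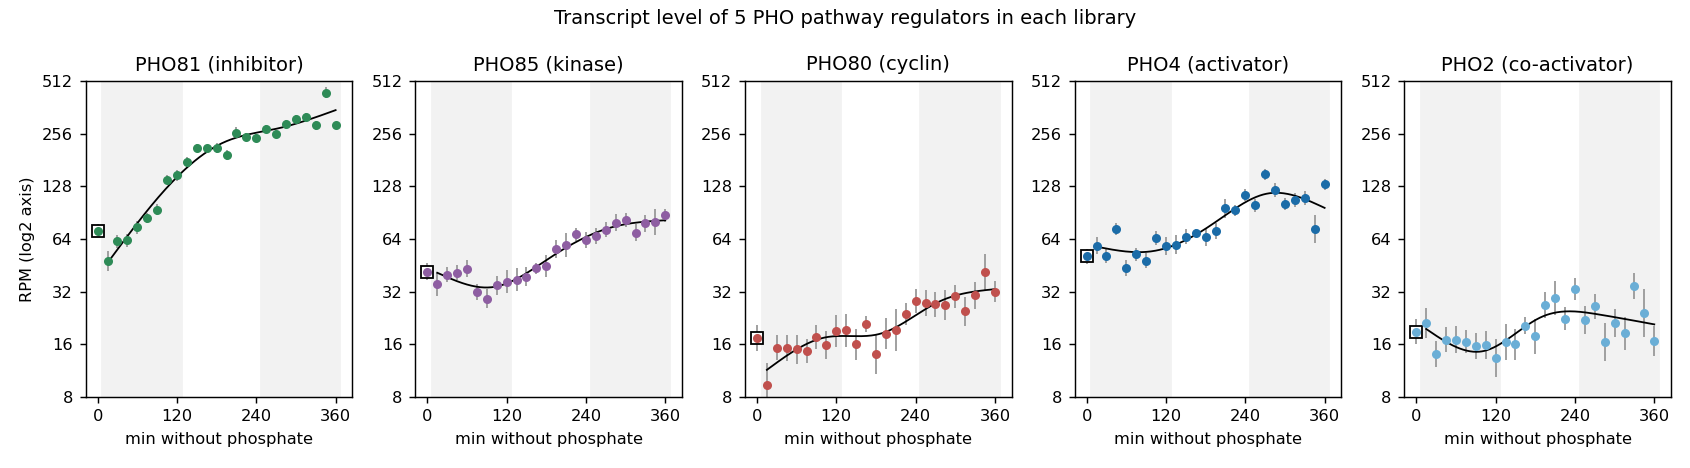
RPM of each regulator (y axis, log2 scale) against minutes without phosphate (x axis), 1 point per library, with bars for the counting error of 1 SD, the fitted curve as a line, the 0 min library as an open square and the early and late windows shaded. PHO81 climbs from 71.1 RPM at 0 min to between 256 and 438 late, while PHO2 stays between 13.3 and 34.4 throughout.

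The course of PHO81 was read library by library. From 47.7 RPM (61 reads) in the 15 min library it went to 61.9, 63.0 and 74.7 in the next 3 libraries. Between 75 and 120 min its values were 84.4, 94.3, 139.6 and 148. It then stood at 211 at both 150 and 165 min and at 212 at 180 min. The 15 min library was its lowest of all. PHO81 first stayed at least 1 log2 unit above 0 min for 3 consecutive libraries from 120 min, and PHO84, the high-affinity phosphate transporter gene, from 90 min. With a size of 0.58 in place of 1 these times were 105 and 75 min. The fitted curve of PHO81 passed the midpoint between its level at 15 to 60 min and its level at 315 to 360 min at 117 min, and that of PHO84 did so at 125 min. With 3 or 6 degrees of freedom in the curve the midpoints were 115 and 113 min for PHO81 and 119 and 114 min for PHO84, so no order between them can be read. For PHO4, PHO85 and PHO80 the midpoints were 188, 204 and 216 min. With 3 degrees of freedom they were 184, 206 and 201 min, and with 6 they were 197, 199 and 211 min. PHO4 had the earliest value with each setting, but with 6 it was 197 against 199 min for PHO85. Libraries were 15 min apart, so no order between PHO4 and PHO85 can be read. The order of PHO85 and PHO80 turned with 3. None of these 3 genes, nor PHO2, had 3 consecutive libraries at least 1 log2 unit from 0 min. With the size of 0.58 PHO4 met the rule from 210 min, PHO85 from 225 min and PHO80 from 240 min, and PHO2 did not meet it. The curve of PHO2 crossed its midpoint more than once with 4 degrees of freedom, and once with 3 or 6, at 169 and 165 min.

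**Figure D2:**
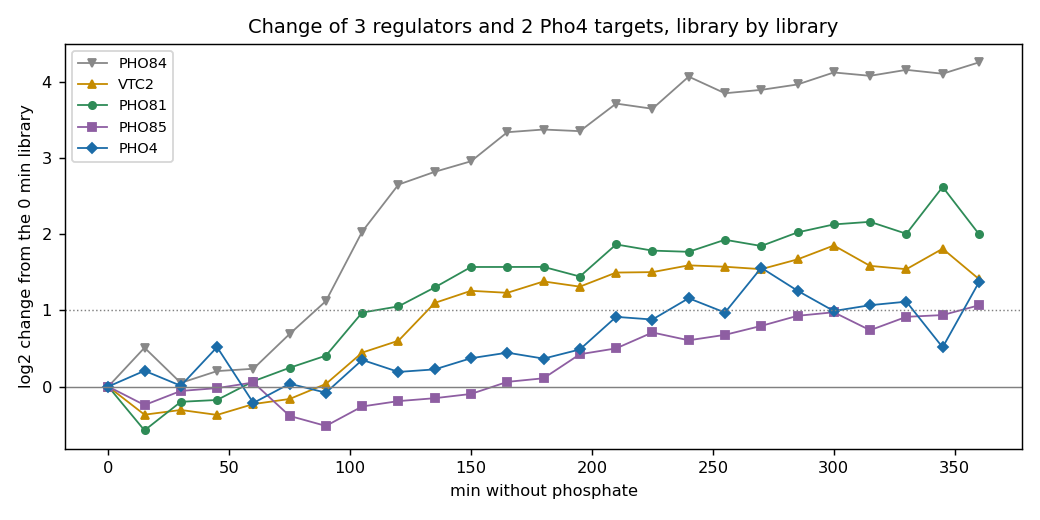
Log2 change from the 0 min library (y axis) against minutes without phosphate (x axis) for PHO81, PHO85, PHO4 and the Pho4 targets PHO84 and VTC2, 1 point per library. PHO81 and PHO84 leave the 0 min level between 75 and 120 min, and PHO4 first exceeds 1 log2 unit at 240 min and PHO85 at 360 min.

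PHO85, the kinase (YPL031C, chromosome XVI, 492018 to 493037, minus strand, with 2 coding exons and an intron of 102 bases), rose later. It was at 41.7 RPM at 0 min, on 82 reads. The early window spanned 29.1 to 43.2 RPM with a median of 35.8, and the middle window 37.5 to 68.2 with a median of 50.4. The late window spanned 66.7 to 87.3 with a median of 79.0, wholly above the early one. In 7 of the 8 early libraries PHO85 was below 0 min, and its lowest value was at 90 min. Late against early it rose by 1.10 log2 units (SE 0.08, adjusted p = 7.4e-13), or 0.61 above the median gene. Its change late against 0 min was 0.89 (SE 0.18, adjusted p = 2.0e-04), short of the required size, and 0.48 relative to the median gene. Early and middle against 0 min it stood at -0.21 (SE 0.18, adjusted p = 0.762) and 0.27 (SE 0.18, adjusted p = 0.307). Its main step, from 44.9 RPM at 180 min to 68.2 at 225 min, came as the ribosomal protein share of reads went from 25.8% to 7.88%, and the values on other library scales are given further on.

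The other kinase genes were read from a list of CDC28, KIN28, SSN3, CTK1, SGV1, the activating kinase gene CAK1 and CKS1, which encodes a kinase-binding subunit. Of these 7 genes, 1 rose late against 0 min and 0 fell, with a median log2 change of 0.55, where 21.1% of all tested genes rose and the median gene was at 0.41. CAK1, whose product activates Cdc28, rose by 1.94 (SE 0.31, adjusted p = 5.4e-06), from 11.2 RPM at 0 min to a geometric mean of 42.0 late, and it passed on each of the other 3 library scales described below. KIN28, the kinase of the transcription factor TFIIH, was at 0.59 (SE 0.20, limma adjusted p = 0.013), under the size required. SGV1 at 0.55 (SE 0.25, limma adjusted p = 0.0608) and CTK1 at 0.62 (SE 0.37, limma adjusted p = 0.163) met neither the size nor the adjusted p. Per kilobase of coding length, PHO85 stood at 45.4 RPM at 0 min and at a late median of 86.1. For CDC28, the main cell cycle kinase, named here after its values were seen, these were 35.1 and 33.3. For KIN28 they were 40.8 and 61.2, for SGV1 24.2 and 35.7, for CTK1 11.5 and 18.7 and for CAK1 10.1 and 36.3. For CKS1 and SSN3, also named after their values were seen, they were 89.7 and 112, and 21.6 and 20.7.

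PHO80, the cyclin (YOL001W, chromosome XV, 325249 to 326130, plus strand), was among the lowest of the 5 in reads, with 12 to 87 per library. It stood at 17.3 RPM at 0 min, on 34 reads. The early window ran from 9.39 to 19.1 RPM with a median of 15.2, the middle window from 14.0 to 28.2 with a median of 19.2 and the late window from 24.7 to 41.2 with a median of 28.8. The late values all lay above the early ones, and the lowest value of all was at 15 min. Late against early PHO80 rose by 1.01 log2 units (SE 0.12, adjusted p = 1.0e-08), or 0.52 above the median gene. This is at the edge of the required size, and it lay between 0.93 and 1.06 when single libraries were left out, under 1 for 8 of the 25. It was 0.93 without the 15 min library, 0.94 without 345 min, 0.98 without 240 min and 0.99 to 1.00 without 75, 105, 150, 225 or 255 min. The change of PHO80 late against 0 min was 0.80 (SE 0.26, adjusted p = 0.0128). Early and middle against 0 min gave -0.21 (SE 0.26, adjusted p = 0.841) and 0.16 (SE 0.26, adjusted p = 0.709).

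Pho85 works with 10 cyclins in all, and the other 9 serve other substrates. Late against early 5 of the 10 cyclin genes rose and 0 fell, with a median of 0.89, where 21.2% of all tested genes rose and the median gene was at 0.49. PCL9 rose by 1.69 (SE 0.11), CLG1 by 1.51 (SE 0.12), PCL5, which directs Pho85 to the amino acid regulator Gcn4, by 1.24 (SE 0.07), PCL7 by 1.08 (SE 0.14) and PHO80 by 1.01. In the late window 4 of 10 rose against 0 min, with a median of 0.84, where 21.1% of all genes rose. These were CLG1 at 1.37 (SE 0.26, adjusted p = 7.6e-05), PCL8 (named after its value was seen) at 1.32 (SE 0.40), PCL7 at 1.25 (SE 0.31) and PCL9 at 1.15 (SE 0.24). PCL8 was listed in 23 of the 25 libraries. At 0 min it was the lowest of the 10 cyclin genes, at 3.78 RPM per kilobase of coding length and near the floor for listing. PCL5 was at 0.84 (SE 0.17, adjusted p = 1.1e-04), under the size required. With each library centred on its median gene, or scaled to reads outside ribosomal protein genes, 0 cyclin genes passed late against 0 min and PCL9 alone did late against early. On 5 reference genes PCL7, PCL8 and CLG1 passed late against 0 min, and PCL9 and CLG1 late against early. By level per kilobase of coding length PHO80 was the eighth of the 10, both at 0 min (19.6 RPM) and late (median 32.6). PCL5 was the highest at both, with 208 and a late median of 376.

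**Figure D3:**
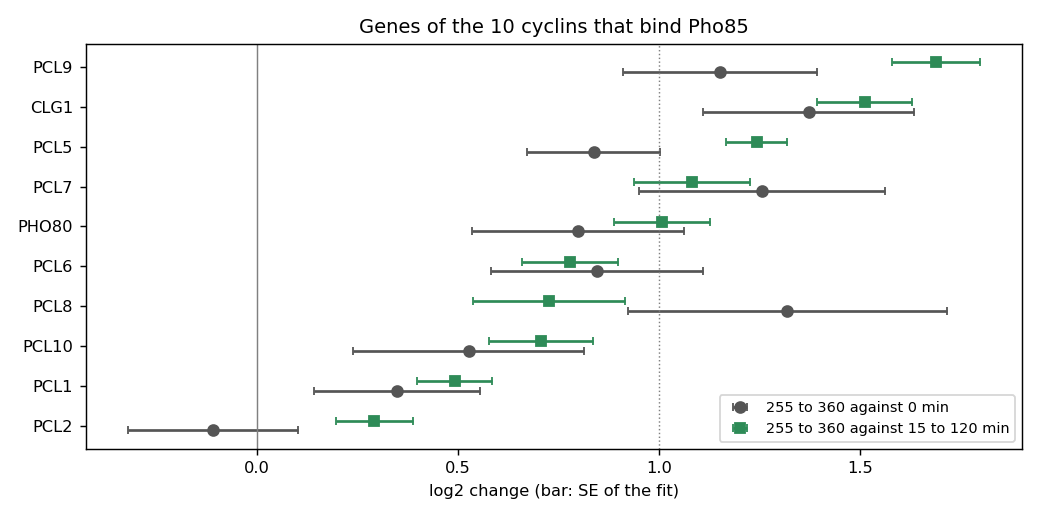
Log2 change (x axis) of the genes of the 10 Pho85 cyclins (y axis), late against 0 min as circles and late against early as squares, with bars for the SE and a dotted line at the required size of 1. PHO80 lies at 0.80 and 1.01, within a family that spans -0.11 to 1.37 late against 0 min and 0.29 to 1.69 late against early.

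PHO4, the transcription factor (YFR034C, chromosome VI, 225020 to 225958, minus strand), was at 50.8 RPM at 0 min, on 100 reads. It ran from 43.8 to 72.8 RPM early with a median of 55.1, from 59.4 to 114 in the middle window with a median of 70.2, and from 72.6 to 149.9 late with a median of 108. All 16 middle and late libraries were above 0 min. The late and early windows overlapped through the 345 min library alone, at 72.6 RPM on 30 reads, against the early highest of 72.8. Late against 0 min PHO4 rose by 1.11 log2 units (SE 0.24, adjusted p = 3.9e-04), or 0.71 above the median gene. Late against early the change was 0.99 (SE 0.11, adjusted p = 3.2e-09), just under the required size, and it reached 1.08 without the 345 min library, 1.05 without 45 min, 1.02 without 105 min, 1.01 without 300 min and 1.00 without 255 min. Early and middle against 0 min it was at 0.12 (SE 0.24, adjusted p = 0.906) and 0.61 (SE 0.24, adjusted p = 0.0656).

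The genes that act with Pho4 were read from separate lists. In a list of 10 genes for Pho4 transport and promoter chromatin, 0 passed late against 0 min, with a median of 0.39, where 28% of all tested genes passed. PSE1, whose product imports Pho4, was at -0.92 (SE 0.21, adjusted p = 5.8e-04), and it fell by 1.39, 1.10 and 1.45 on the 3 other library scales. MSN5, the exporter of phosphorylated Pho4, was at 0.56 (SE 0.15), SNF2, the ATPase of a chromatin remodeller, at 0.88 (SE 0.19) and GCN5, a histone acetyltransferase, at 0.51 (SE 0.18), none past the size required. In a list of partners and competitors of Pho4 and Pho2, 3 of the 6 tested rose late against 0 min and 0 fell, with a median of 0.73, where 21.1% of all genes rose. TYE7, a helix-loop-helix activator of glycolytic genes, rose by 3.30 (SE 0.23, adjusted p = 1.3e-12), from 43.2 RPM at 0 min to a geometric mean of 426 late. CBF1, a helix-loop-helix factor that also binds CACGTG, rose by 2.65 (SE 0.34, adjusted p = 1.5e-07), from 9.65 to 61.7 RPM. RTG3, of the mitochondrial retrograde pathway, rose by 1.07 (SE 0.33, adjusted p = 0.00787) but not on the other scales, while TYE7 and CBF1 passed on all of them. INO4, a regulator of phospholipid synthesis, was at 0.38 (SE 0.18).

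PHO2, the homeodomain co-activator (YDL106C, chromosome IV, 270222 to 271901, minus strand), was the least changed of the 5. It stood at 18.8 RPM at 0 min, on 37 reads, with 10 to 85 reads over all libraries. The early window spanned 13.3 to 21.1 RPM with a median of 16.2, the middle window 16.0 to 33.2 with a median of 21.4 and the late window 16.5 to 34.4 with a median of 21.6. The 3 windows overlapped, and 5 of 8 late libraries were above 0 min. PHO2 passed in 0 of the comparisons. It was at 0.26 late against 0 min (SE 0.32, adjusted p = 0.515), with a 95% interval of -0.41 to 0.93. Late against early it was at 0.49 (SE 0.14, adjusted p = 0.00299), where the median gene was at 0.49. Pho2 also acts with Bas1 on genes of purine, histidine and one-carbon metabolism, and of 14 such genes tested 10 rose late against 0 min and 0 fell, with a median of 1.78, where 21.1% of all genes rose. The 4 with the largest moderated t were ADE17, of purine synthesis, at 3.21 (SE 0.16), HIS4, of histidine synthesis, at 2.50 (SE 0.16), GCV2, of glycine cleavage, at 2.24 (SE 0.17) and SHM2, a serine hydroxymethyltransferase gene, at 1.68 (SE 0.14). Centred on the median gene, on reference genes and outside ribosomal protein genes, 10, 10 and 8 rose (10.2%, 16.1% and 9.14% of all genes). Late against early 9 rose as deposited (21.2%), and 4, 8 and 3 on these scales (8.02%, 12.9% and 7.3%). Early against 0 min 2 of the 14 rose, where 0.0765% of all genes rose. Like the other lists, this one was chosen with earlier results of these data known, so its counts are descriptive.

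Over all 5 genes, 2 passed late against 0 min (PHO81 and PHO4), where 28% of all tested genes passed and 21.1% rose. Late against early 3 passed (PHO81, PHO85 and PHO80), where 25.9% of genes passed and 21.2% rose. Between the windows themselves, 1 passed middle against early, PHO81 at 1.36 (SE 0.08, adjusted p = 2.3e-14), against 5.95% of genes, and 0 passed late against middle, against 8.25%. Late against middle the adjusted p was under 0.05 for all but PHO2, at sizes of 0.47 to 0.64, and for 58.8% of all genes. Middle against 0 min 1 passed, against 10.8% of genes, and early against 0 min 0 passed, against 0.115%. At an unadjusted p under 0.05, which 8.24% of genes reached, the early comparison also gave 0 of the 5. For change at any time without phosphate 4 passed, against 41.4% of genes, with adjusted p = 2.2e-17 for PHO81, 3.4e-11 for PHO85, 1.0e-07 for PHO4 and 2.8e-07 for PHO80, and adjusted p = 0.00828 for PHO2 with a fitted range of 0.77, under the size required. The late values of 3 of the 5 lay wholly above the early ones, as they did in 36.1% of genes. Of all tested genes 4.07% had a larger value than PHO81 late against 0 min, compared with 18.0% for PHO4, 25.3% for PHO85, 29.1% for PHO80 and 58.4% for PHO2.

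The scale given to each library set how large the smaller changes appeared. With libraries centred on the median gene, PHO81 rose by 1.31 late against early (SE 0.07), and with reads of ribosomal protein genes left out of the total it rose by 1.26 (SE 0.08). On 5 reference genes used for RT-qPCR (ALG9, TAF10, TFC1, UBC6 and KRE11) it rose by 1.57 (SE 0.09). For PHO85 these 3 values were 0.56 (adjusted p = 3.3e-06), 0.52 (adjusted p = 1.5e-06) and 0.83 (adjusted p = 1.6e-09). For PHO80 they were 0.47 (adjusted p = 9.3e-04), 0.43 (adjusted p = 0.0017) and 0.74 (adjusted p = 1.0e-05). For PHO4 they were 0.45 (adjusted p = 0.00208), 0.41 (adjusted p = 0.00157) and 0.72 (adjusted p = 5.9e-07), and for PHO2 -0.04 (adjusted p = 0.810), -0.09 (adjusted p = 0.599) and 0.23 (adjusted p = 0.153). PHO81 was the only one of the 5 of the required size on each scale, and PHO2 was below 0 on the first 2 of the 3. On these scales 17.8%, 17.7% and 19.3% of genes passed late against early, and 22.5%, 22.6% and 24.7% late against 0 min. Of all genes, 1125 were higher and 247 lower late against early as deposited, and 425 and 516 once centred. Late against 0 min these counts were 1105 and 358, and 531 and 645 once centred. The 5 reference genes with ACT1 had a median log2 change of 0.27 late against 0 min as deposited, and 0 of these 6 passed. ACT1, encoding actin, was at 0.56 (SE 0.12).

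**Figure D4:**
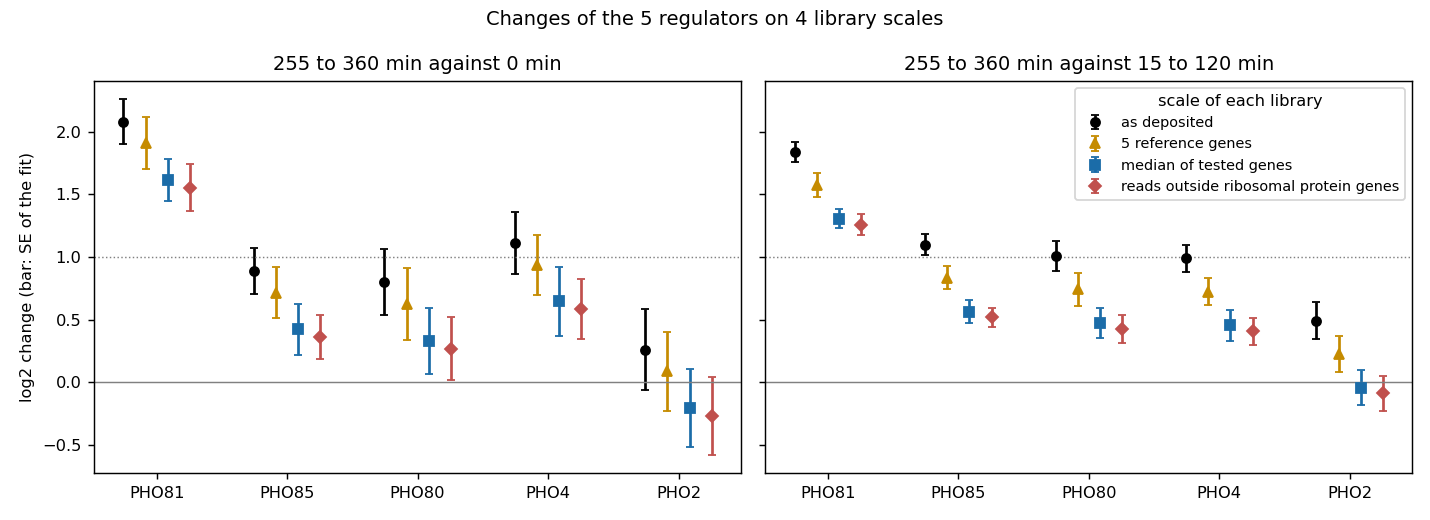
Log2 change of each regulator (y axis) late against 0 min (left) and late against early (right) on 4 library scales, with bars for the SE of the fit and a dotted line at the required size of 1. PHO81 stays above 1 on each scale. Once libraries are centred on the median gene, PHO2 lies at -0.20 (SE 0.31) late against 0 min and at -0.04 (SE 0.14) late against early.

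Ratios between the 5 genes do not depend on library scale, and 10 pairs were compared, each against all tested genes. Relative to PHO85, PHO81 rose by 1.19 log2 units late against 0 min (SE 0.24, adjusted p = 1.0e-04), where 28.3% of genes passed in either direction relative to PHO85. The ratio of PHO80 to PHO81 fell by 1.28 (SE 0.33, adjusted p = 4.7e-04), and that of PHO2 to PHO81 fell by 1.82 (SE 0.39, adjusted p = 4.2e-05), where 82.2% of genes passed relative to PHO81. These 3 pairs passed late against 0 min. The ratio of PHO4 to PHO81 was at -0.97 (SE 0.32, adjusted p = 0.00535), under the size required. Late against early 1 pair passed, PHO2 to PHO81, whose ratio fell by 1.35 (SE 0.17, adjusted p = 2.0e-09), where 72.4% of genes passed. PHO80 relative to PHO85, the cyclin relative to its kinase, was at -0.09 late against early (SE 0.13, adjusted p = 0.528), with a 95% interval of -0.37 to 0.18, where 29.5% of genes passed relative to PHO85. PHO4 relative to PHO80, to which 25.2% of genes passed, was at -0.02 (95% interval -0.33 to 0.30) and relative to PHO85 at -0.11 (95% interval -0.37 to 0.15). PHO4 relative to PHO2, to which 17.8% passed, was at 0.50 (SE 0.18, adjusted p = 0.0117), PHO2 relative to PHO85 at -0.61 (SE 0.16, adjusted p = 0.00104) and PHO2 relative to PHO80 at -0.51 (SE 0.17, adjusted p = 0.00724), all under the size required.

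Levels were set side by side per kilobase of coding length, which leaves out untranslated regions. At 0 min PHO4 had 54.1 RPM per kilobase, PHO85 45.4, PHO81 20.1, PHO80 19.6 and PHO2 11.2. PHO81 and PHO80, neighbours in this order, differed by less than their counting errors of 0.12 and 0.25 on the log2 scale. Late, PHO4 had a median of 115 (77.4 to 159.6), PHO85 of 86.1 (72.7 to 95.1), PHO81 of 81.4 (72.4 to 124), PHO80 of 32.6 (28.0 to 46.7) and PHO2 of 12.8 (9.82 to 20.5). The late ranges of PHO4, PHO85 and PHO81 overlapped, and those of PHO80 and PHO2 overlapped with no other. The inhibitor's transcript stood at 0.443 times the level of the kinase's at 0 min, with an early range of 0.352 to 1.05. Its middle median was 1.18 times (0.90 to 1.41), and its late median was lower, at 0.967 times (0.848 to 1.42), with overlapping ranges. The cyclin's transcript stayed below the kinase's in all 25 libraries, at 0.278 to 0.628 times its level. Relative to the cyclin's, that of the inhibitor was higher in all 25 libraries.

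**Figure D5:**
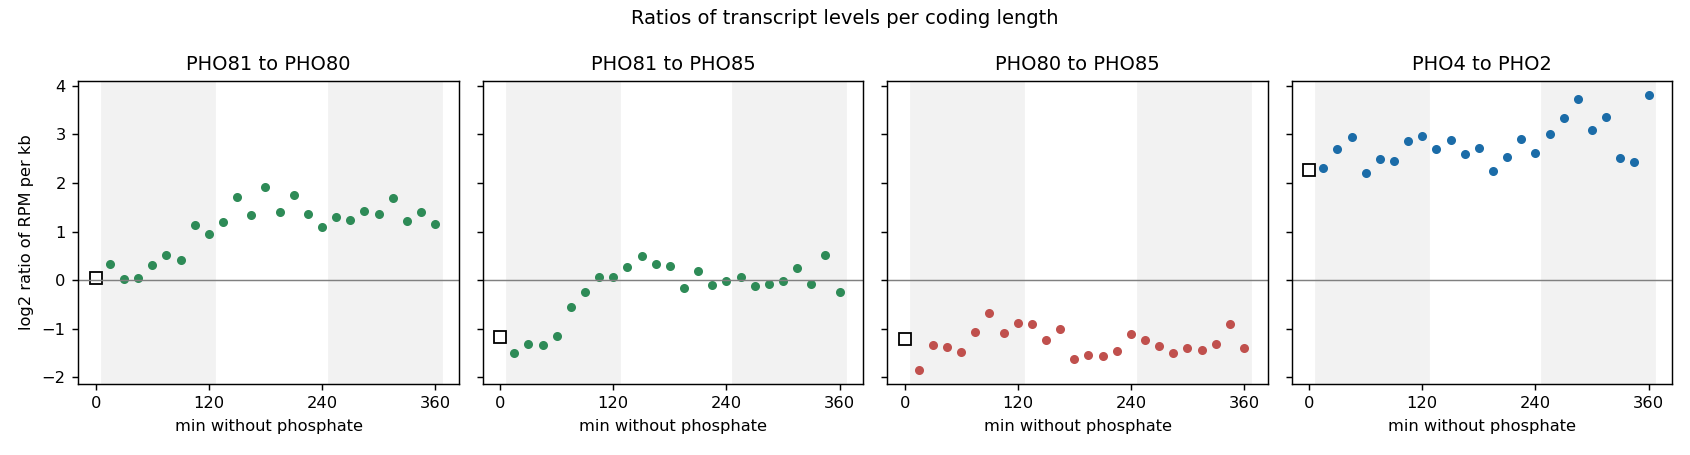
Log2 ratio of RPM per kilobase (y axis) against minutes without phosphate (x axis) for 4 pairs of regulators, 1 point per library and the 0 min library as an open square. PHO81 goes from 0.443 times the level of PHO85 at 0 min to a middle median of 1.18 times and a late median of 0.967 times. PHO80 to PHO85 has medians of 0.435, 0.396 and 0.385 in the 3 windows.

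The genes with courses most like each regulator were named by Pearson correlation of log2 RPM over the 25 libraries, among 4334 genes listed in all of them. These values describe courses that share libraries and their composition. Which genes came first changed with the kind of correlation and the library scale, as given further on. For PHO81 they were VTC2 (0.98), PHO84 (0.97), VTC1 (0.96), VTC4 (0.96) and PHO12 (0.95), of which the VTC genes encode the vacuolar polyphosphate polymerase complex and PHO12 an acid phosphatase. For PHO85 they were UGX2 (0.98), SSE2, an Hsp110-type chaperone gene (0.98), APE3, a vacuolar aminopeptidase gene (0.98), HYR1, a peroxidase gene (0.97), and PRC1, the carboxypeptidase Y gene (0.97). The course of PHO85 was a common one, shared at 0.9 or more by 13.5% of these genes, compared with 1.43% for PHO81. For PHO4 they were YPT52, a Rab GTPase gene (0.94), DOT5, a nuclear peroxidase gene (0.94), COX7, of cytochrome c oxidase (0.93), YHR113W (0.93) and YJR085C (0.93). PHO80 was most like YOR338W (0.94), INM1, an inositol monophosphatase gene (0.93), CDC16 (0.91), PIB2 (0.91) and DAL3 (0.91). PHO2 had none at 0.9 or more, and the highest were PDS5 (0.78), CHA4 (0.78), YPK1 (0.78), AIM43 (0.78) and MYO5 (0.76). Among the 5 themselves the correlation was highest for PHO4 with PHO85 (0.86) and lowest for PHO2 with PHO80 (0.44). Centred on the median gene these became 0.67 and -0.18.

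The scatter of each gene was set beside its counting error. The SD of the residuals around the fitted curve was 0.13 for PHO85, 0.21 for PHO80 and 0.30 for PHO2, against counting errors of 0.17, 0.28 and 0.28 on the log2 scale. For PHO81 and PHO4 it was 0.17 and 0.24, against counting errors of 0.10 and 0.15. The largest residuals of PHO81 (0.40) and PHO4 (-0.49) both fell in the 345 min library, which had the fewest reads. Without that library PHO81 rose by 2.01 late against 0 min and PHO4 by 1.20.

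Among 18 tested targets of Pho4, 0 passed early, 16 rose in the middle window and 18 rose late against 0 min, with a late median of 2.99. Of all tested genes 0.115% passed early, 6.33% rose in the middle window and 21.1% rose late. PHM6 rose by 3.70 (SE 0.14), PHM8, a nucleotidase gene, by 4.12 (SE 0.17), PHO5, the secreted acid phosphatase gene, by 3.83 (SE 0.18) and PHO89, a sodium-coupled phosphate transporter gene, by 3.79 (SE 0.21). PHO81 at 2.08 lay below that median. Among proteins with an SPX domain, a phosphate and inositol pyrophosphate binding fold that Pho81 carries, 5 of 9 genes tested rose late against 0 min and 0 fell as deposited, with a median of 1.61, where 21.1% of all genes rose. On each of the 3 other library scales PHO90, a low-affinity phosphate transporter gene named after its values were seen, passed as lower, and it was at -0.88 (SE 0.25, adjusted p = 0.00434) as deposited. Beside PHO81 these were GDE1, a glycerophosphodiesterase gene, at 2.81 (SE 0.19), VTC4 at 2.90 (SE 0.20), VTC3 at 2.88 (SE 0.26) and VTC2 at 1.61 (SE 0.17), and these 4 are also in the list of Pho4 targets.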

How the data were processed

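RNA sequencing of total RNA gave 1 library at each of 25 times. Per the submitters' processing notes, Bowtie was used and the genome build was R64. No source used here names the counting program, annotation, strand setting or treatment of shared reads. The authors deposited 1 matrix of log2 values; its low values step as whole reads scaled to library size, with a floor of 10 reads, and 94.1% of values came out whole to within 0.01 reads. Depth was thereby recovered for description. Values under the floor are blank, so a count test was not the main test, and no pseudocount was added.

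Genes listed in at least 13 libraries and in at least 3 of each window without phosphate were tested, 5298 in all (5230 with a 0 min value). A natural spline in time with 4 degrees of freedom and a separate term for 0 min was fitted to all of them at once with limma 3.58.1 in R 4.3.3, leaving 19 residual degrees of freedom in genes listed throughout. Contrasts of window means were tested two-sided, with Benjamini-Hochberg adjustment over all genes tested. Ratios between members were fitted in the same way. Python 3.11.15 and matplotlib 3.10.9 were used for summaries and plots. The curve fit was tested on simulated counts, for the late against early and late against 0 min contrasts only.

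Named genes are the members, VIP1, PHO84, the 5 genes most like each member, and from each list the 4 with the largest moderated t late against 0 min. The members and lists were chosen with earlier results of these data known. Added after seeing the data were the precision weights, the scaling outside ribosomal protein genes, the middle against early and late against middle contrasts, the midpoints and the count of genes with a correlation of at least 0.9. Alternatives covered the curve, library scale, weights, size minimum, low-value filter and single libraries. Protein sequences were not used here.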

Additional observations from a re-analysis of the deposited data

Results flagged for a closer look

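In 3 of 21 groups of 8 libraries, 1 library stood apart from the other 7 by Dixon's criterion, where chance gives about 5% of groups. In the early window PHO80 had its lowest value at 15 min, with 9.39 RPM on 12 reads. In the late window PHO81 had its highest value at 345 min, with 438 RPM on 181 reads, and VIP1 had its highest value in the same library, with 55.7 RPM on 23 reads. The 345 min library had the fewest reads of all, 413033. Without it PHO81 rose by 1.77 log2 units late against early, and PHO80 was at 0.94, under the size required. Without the 15 min library PHO80 was at 0.93.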

How the results depend on the processing

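PHO81 passed late against 0 min and late against early in 77 of 77 values under alternatives, and 1094 of 1155 values of the 5 genes kept direction and call. Most of these alternatives left out a single library of the same time course. Those with a smaller size minimum or none could not undo a call. Direction turned in 14 values of PHO2 and PHO80 and 8 of pairs, with an adjusted p under 0.05 in 0 of them. Centred on the median gene and outside ribosomal protein genes PHO2 was at -0.20 and -0.27 late against 0 min, -0.041 and -0.087 late against early and -0.23 and -0.22 late against middle, and PHO80 at -0.012 and -0.089 middle against 0 min. Outside ribosomal protein genes PHO2 was at -0.052 middle against 0 min. Late against middle PHO2 was also at -0.091 on reference genes, -0.014 with window means, -0.094 with every second time point and from -0.028 to 0.15 without single libraries. Late against early PHO4 to PHO80 was at 0.091 with array weights and from -0.14 to 0.14 without single libraries, and PHO80 to PHO85 at 0.0077 with every second time point. Centring on the median gene, on reference genes or on reads outside ribosomal protein genes left 1 gene passing late against 0 min and 1 late against early, with PHO4 late against 0 min at 0.65, 0.94 and 0.58, PHO80 late against early at 0.47, 0.74 and 0.43, and PHO85 at 0.56, 0.83 and 0.52. For change over time 1, 2 and 2 genes passed on these scales (31.2%, 33.1% and 30.7% of all genes), and 2 (25.0%) with window means in place of the curve. Every second time point left 1 gene late against 0 min, PHO81, where 28.0% of all genes passed, with PHO4 at 0.91 under the size required. With this setting 2 pairs passed late against early. PHO80 late against early was 0.98 with 6 degrees of freedom, 0.92 with array weights, 0.99 with window means, 0.95 without the 15 and 30 min libraries and 0.97 with precision weights; PHO4 was 1.05 with array and 1.03 with precision weights. With no size minimum 4 genes passed late against 0 min (PHO80 at 0.80 and PHO85 at 0.89 included), 5 late against early (PHO4 at 0.99 and PHO2 at 0.49 included), 5 middle against early and 4 late against middle, where 51.3%, 79.6%, 60.2% and 58.8% of all genes passed, and 7 pairs late against early. With a minimum of 0.58 the 4 genes late against 0 min also passed, as did PHO4 at 0.99 late against early, with 2 genes late against middle and 5 pairs; of all genes 46.2% passed late against 0 min, 51.8% late against early and 23.5% late against middle. The cause of these changes was not tested. For the pair counts under these alternatives, the share of all genes passing relative to each member is not given here, so they cannot be set against it. In the fit used above, with a size of at least 1, that share ran from 17.8% (PHO2) to 72.4% (PHO81) late against early.

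Leaving out single libraries gave 2 to 4 genes late against early and 2 late against 0 min. With all libraries kept, 25.9% and 28% of all tested genes passed in these comparisons. Without the 15 min library, for example, 1360 of 5298 genes passed late against early and 1449 of 5230 late against 0 min. Late against early PHO80 ranged from 0.93 to 1.06, PHO4 from 0.87 to 1.08, PHO85 from 1.04 to 1.14, PHO81 from 1.77 to 1.92 and PHO2 from 0.40 to 0.57. Late against 0 min PHO4 ranged from 1.00 to 1.20 and PHO81 from 2.01 to 2.15. Passing pairs ranged from 1 to 2 late against early and from 3 to 4 late against 0 min; PHO4 to PHO81 reached the size without the 270 or 360 min library (-1.02 and -1.15) late against 0 min, and without 360 min (-1.05) late against early. Of the 5 genes most like PHO81, 0 were shared with a Spearman ranking. For PHO4, PHO2, PHO80 and PHO85, 2 of 5 were shared in each case. With libraries centred on the median gene, 3 of 5 were shared for PHO2 and PHO80, 4 for PHO81 and PHO85 and 5 for PHO4. No paired analysis was possible because each time has 1 library and the labels carry no replicate numbers. The single 0 min library and 10 to 85 reads for PHO2 limit what could be detected.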

Other observations

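Enzymes of inositol pyrophosphate metabolism, the pathway of Vip1, were read as a further list. Late against 0 min 3 of the 7 tested rose and 0 fell, with a median log2 change of 0.99, where 21.1% of all tested genes rose. DDP1, a phosphatase gene, rose by 2.37 (SE 0.16, limma adjusted p = 5.7e-13), PLC1, the phospholipase C gene, by 2.12 (SE 0.17) and KCS1, the other inositol pyrophosphate kinase gene, by 1.90 (SE 0.16), and these 3 passed on each of the other library scales. ARG82, an inositol polyphosphate kinase gene, was at 0.99 (SE 0.29, adjusted p = 0.00525).

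Among substrates of Pho85 and the branch of the kinase Rim15, 3 of the 10 tested rose late against 0 min and 0 fell, with a median of 0.69, where 21.1% of all tested genes rose and 28% passed in either direction. GSY2, a glycogen synthase gene, rose by 2.57 (SE 0.38, limma adjusted p = 1.9e-06), RIM15 by 1.99 (SE 0.32) and IGO1, of the Rim15 branch, by 1.12 (SE 0.16). GSY2 and RIM15 passed on the other library scales, and IGO1 did not. RVS167, of the actin cytoskeleton, was at 0.67 (SE 0.14).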
